A study of Mus musculus with 9 samples.

Results

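The genes described here are 42 interferon-stimulated genes of the mouse, a list of transcripts that cells make in response to type I interferon. They were followed across 9 cell lines re-derived from tumors of 4T1, a murine mammary carcinoma line that spreads from the mammary gland to distant organs. The members were taken by symbol from that list. Of the 42 genes, 36 had a probe set that carries their symbol alone and are measured here, out of 19938 genes in all. Isg15, Oas1g, Gbp2, Igtp and Ifi47 lay on probe sets that carry several symbols and were left out, and Ifi44 has no probe set named here. The lines fall into 3 origins of 3 lines each: brain metastasis lines (4T1-BM2), lung metastasis lines (4T1-LM2) and primary tumor lines (4T1-T2). Each line came from a separate mouse, and the labels name no genotype, age or interferon treatment for any of them. All lines were thawed together, grown side by side and extracted in parallel, and each line is represented by 1 Affymetrix array. As in any bulk RNA, fewer expressing cells and less RNA per cell cannot be told apart. Lines are named below by origin and mouse number. All levels are log2 values from robust multi-array averaging (RMA), and a difference of 1 on this scale is a doubling of signal.

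Type I interferons bind the receptor pair Ifnar1 and Ifnar2, whose kinases Jak1 and Tyk2 phosphorylate Stat2 among other targets. Stat2 and Irf9 are subunits of the factor ISGF3, which binds the interferon-stimulated response element (ISRE) in front of its target genes. Interferon gamma acts through a different site, the gamma-activated sequence (GAS), and several of the genes listed here, such as Irf1, Gbp3 and Irgm1, respond to it as well. The products sense foreign nucleic acid, degrade or mark viral RNA, block budding, attach the ubiquitin-like protein ISG15, or amplify the signal as transcription factors. Tumor cells can carry a low basal level of this program without added interferon.

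The array medians lay between 5.06 and 5.19, and the median of probe sets that name no gene, 4.21, is used as the background level. Of the 36 members, 32 were above it in the mean of every origin, whereas Ifit3, Mx1, Mx2 and Ifi27l2a had means below it. Those 4 are given no fold between origins and stay in the counts, medians and correlations over the 36 members. All 10 epithelial markers were above background in their mean over the lines, led by Krt8 at 12.9, and their summed signal was 14.4 to 14.6 in brain lines, 14.2 to 14.3 in lung lines and 14.1 to 14.3 in primary lines (log2 of the sum). Of 6 leukocyte markers, 3 were above background and none had a mean over 4.87, and their summed signal spanned 6.83 to 6.87 in brain lines, 6.83 to 6.93 in lung lines and 6.84 to 6.89 in primary lines. Of 6 dendritic cell markers, 2 were above background, and their sum was highest in lung line 3 at 7.133, next to 7.132 in lung line 1. Other lists had more: 6 of 10 macrophage and microglia markers (Cd68 highest, 6.085), 6 of 7 brain cell markers (Mbp 6.301) and 4 of 6 fibroblast markers (Pdgfra 7.469). The summed signal of the brain cell markers was 7.83 to 7.87 in brain lines, 7.77 to 7.99 in lung lines and 7.73 to 7.85 in primary lines. Lung epithelium had 4 of 5, none over 4.985. B cells had 1 of 3, T and NK cells 2 of 7, and endothelial cells and neutrophils 1 of 6 each.

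The ISRE was looked for in the promoters of the members, because it is the site through which type I interferon acts on them. RefSeq (GRCm38.p6) gave a promoter, from 250 bases before to 50 bases after the start, for 26 of the 36 measured members. The letters searched were GAAANNGAAA and, on the other strand, TTTCNNTTTC, with overlapping matches allowed. They occurred in a promoter of 13 of these 26 members (50%), against 607 of the 15614 genes on the array with a promoter (3.89%). The GAS letters TTCNNNGAA occurred in 7 of the 26 (26.9%), against 8.99% of those genes. A gene with several starts was counted once, if any of its promoters matched. The windows below show the match in capitals with its flanks, 5′ to 3′ on the strand of the gene. The first 4 belong to members whose level differed widely between lines of the same origin. Bst2 and Oas1a are members that ranked high in the comparison of origins. Oas3 was lowest in line 3 of brain and of lung, where many other members were high, though it was highest in primary line 1.
Ifit1 (chr19:34640770-34640828, plus strand): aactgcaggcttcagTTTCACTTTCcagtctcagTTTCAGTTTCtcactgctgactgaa
Ddx60 (chr8:61928019-61928092, plus strand): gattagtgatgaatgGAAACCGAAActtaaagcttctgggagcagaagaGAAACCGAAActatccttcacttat
Gbp3 (chr3:142559984-142560029, plus strand): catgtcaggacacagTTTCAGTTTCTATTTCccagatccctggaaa
Rsad2 (chr12:26456548-26456587, minus strand): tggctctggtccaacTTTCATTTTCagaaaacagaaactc
Bst2 (chr8:71537572-71537617, minus strand): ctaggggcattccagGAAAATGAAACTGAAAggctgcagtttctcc
Oas1a (chr5:120907515-120907560, minus strand): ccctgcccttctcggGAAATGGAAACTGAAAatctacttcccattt
Oas3 (chr5:120777710-120777749, minus strand): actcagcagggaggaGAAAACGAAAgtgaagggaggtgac
Ifit1, Ddx60, Gbp3, Bst2 and Oas1a had 2 matches each and Rsad2 and Oas3 had 1. Ifih1, Eif2ak2, Stat2, Trim30a, Irgm1 and Ifit3 also had a match, while Oasl1, Oasl2, Irf7, Irf9, Cmpk2, Samd9l, Irf1, Herc6, Ifit2, Isg20, Dtx3l, Ifi35 and Xaf1 had none in this window. The 13 members with the letters had a median standard deviation of 0.234 between lines of the same origin, and the 13 without had 0.267. A match is only a match of letters, and its absence says nothing about binding elsewhere.

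The members differed between lines of the same origin. In each origin, a line was set against the mean of the other 2 lines, and the members at least 1.5-fold higher or lower were counted. With 1 array per line this is a comparison of sizes with no test. Lung line 3 was the highest of all 9 lines in 17 of the 36 members, a count not made over all genes. It was the highest lung line in 28 members (77.8%, against 27.3% of all genes). It was at least 1.5-fold higher than the other lung lines in 10 members, where 0.416% of all genes passed that limit, and lower in none (0.296% of all genes). Those 10 were Ifit1, Ddx60, Cmpk2, Rtp4, Oasl1, Oasl2, Rsad2, Irf7, Dhx58 and Gbp3. The median over the 36 members was 0.42 (log2) above the other lung lines, against -0.00485 over all genes. On the higher side were 30 members (83.3%), against 46.7% of all genes.

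**Figure D1:**
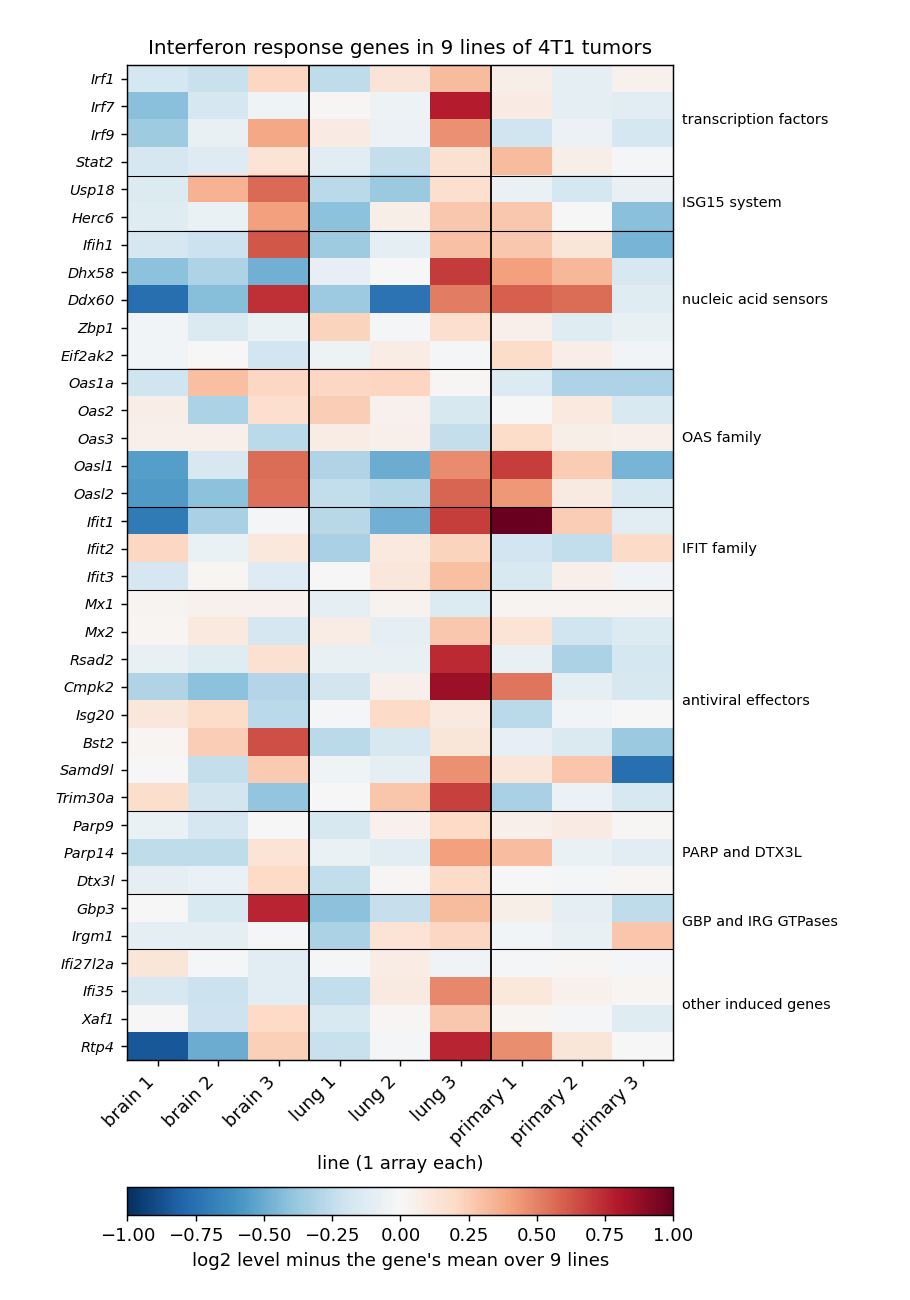
Levels of the 36 measured members in 9 lines, each as the log2 level minus the mean of that gene over the 9 lines, with genes in rows grouped by role and lines in columns (brain, lung, primary). The columns of lung line 3, brain line 3 and primary line 1 hold most of the red cells. Oas3 shares this pattern in primary line 1 only, and Isg20 and Mx1 do not share it in full.

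In brain line 3, 7 members were at least 1.5-fold higher than in the other brain lines (0.777% of all genes) and none was lower (1.07% of all genes). These were Ddx60, Oasl2, Oasl1, Rtp4, Gbp3, Ifih1 and Irf9, and the median over all members was 0.26. In brain line 1 none was higher (0.517% of all genes), and Ddx60, Oasl1, Rtp4, Oasl2 and Usp18 were lower (0.381% of all genes), with a median of -0.10. Brain line 1 held the lowest of the 9 values in 9 members, a count not made over all genes. Brain line 3 and lung line 1 held it in 6 members each. Brain line 1 was the lowest brain line in 16 (44.4%, against 36.1% of all genes). In brain line 2, no member passed the limit upward (0.461% of all genes) or downward (0.286% of all genes), and its median, -0.11, was as low as that of brain line 1. Leaving out brain line 3 brought the 5 lower members of brain line 1 to 0, and leaving out brain line 2 brought them to 10. Brain line 2 had 6 lower members without brain line 1. The 7 higher members of brain line 3 were 6 without brain line 1 and 10 without brain line 2. With a line left out, the other 2 lines of its origin are compared with each other. The higher members of 1 are then the lower members of the other, so both counts are 1 result.

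Lung line 1 had no member higher (0.933% of all genes) and Cmpk2 and Rtp4 lower (0.657% of all genes), with a median of -0.28. Lung line 2 had none higher (0.211% of all genes) and Ddx60 and Ifit1 lower (0.326% of all genes). Among primary lines, Ifit1, Oasl1 and Cmpk2 were higher in line 1 (0.316% of all genes) and none was lower (0.356% of all genes). Primary line 2 had Samd9l higher (0.401% of all genes) and none lower (0.226% of all genes). Primary line 3 had none higher (0.808% of all genes) and Samd9l, Oasl1, Ifit1, Ddx60 and Ifih1 lower (0.757% of all genes). The 9 lines gave 21 such cases upward and 14 downward, and only 4 upward and 0 downward reached 2-fold. Values of the line and of the other 2 lines of an origin are not independent. Without lung line 3 no member was lower in lung line 1 or in lung line 2, whereas lung line 1 had 14 lower without lung line 2, and lung line 2 had 9 lower without lung line 1. The 10 higher members of lung line 3 were 9 without lung line 1 and 14 without lung line 2. These are the same 9 and 14 members, seen from the other line of each pair. Primary line 1 had 7 higher without primary line 2, and primary line 3 had 3 lower without primary line 1. Primary line 2 had 3 higher without primary line 1, which are the same 3 members that were lower in primary line 3. Without primary line 3, primary line 2 had 0 higher and 2 lower.

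**Figure D2:**
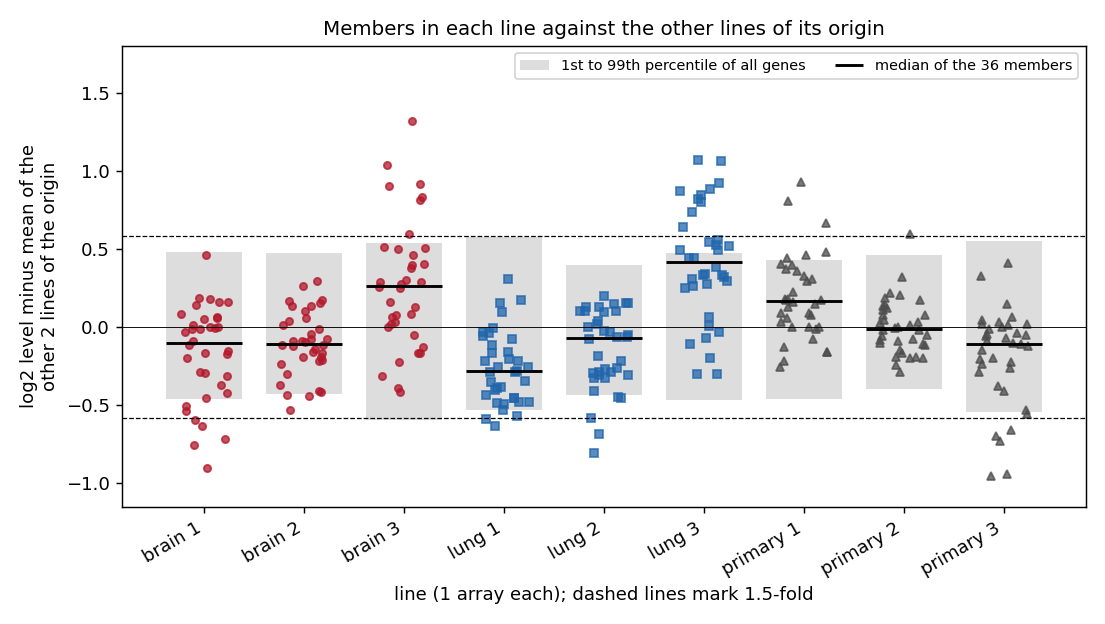
Difference of each member between a line and the mean of the other 2 lines of its origin (log2, vertical axis) for the 9 lines (horizontal axis, 1 array each). Points are the 36 members, black bars their medians, grey boxes the 1st to 99th percentile of all genes, and dashed lines 1.5-fold. In lung line 3 the median is 0.42 and in brain line 3 it is 0.26.

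The spread of all genes also differed between arrays. The interquartile range of the values relative to the median of each gene was widest in brain line 3 (0.178) and lung line 1 (0.164), and was 0.098 in lung line 3. The part of array scatter in the counts of any line was not tested. The brain and lung lines of 1 mouse number also deviated together: over all genes their deviations from the origin means correlated at 0.284, 0.130 and 0.241 for numbers 1, 2 and 3. The high brain line 3 and the high lung line 3 are therefore not shown to be separate occurrences.

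Nucleic acid sensors included the member with the widest difference between lines of an origin. Ddx60, a helicase induced by interferon, had levels of 4.65, 4.98 and 6.13 in brain lines 1 to 3, 5.04, 4.67 and 5.92 in lung lines 1 to 3, and 6.001, 5.97 and 5.29 in primary lines 1 to 3. Line 3 was thus the high line in brain and in lung, and the low line among primary lines, and the 3 origins overlapped. Brain line 3 was 2.49-fold above the other brain lines and lung line 3 was 2.09-fold above the other lung lines. The highest brain line was 2.79-fold above the lowest, the largest such ratio of any member in an origin.

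Ifih1 encodes MDA5, a sensor of long double-stranded RNA. It had 6.36, 6.31 and 7.14 in brain lines, 6.16, 6.42 and 6.81 in lung lines, and 6.79, 6.64 and 6.05 in primary lines. Brain line 3 and lung line 3 were again the high lines of their origins and primary line 3 the low line, and brain line 3 was 1.76-fold above the other brain lines. Dhx58, which encodes the regulator LGP2, had 4.62, 4.72 and 4.54 in brain lines, 4.95, 5.03 and 5.73 in lung lines, and 5.44, 5.36 and 4.87 in primary lines. All brain lines lay below all lung and all primary lines, and brain line 3 was here the lowest of the 9. Zbp1, a sensor of Z-form nucleic acid, and Eif2ak2, the kinase PKR that halts translation, each spanned 0.37 over the 9 lines.

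The oligoadenylate synthetase family divided into members that followed all of the high lines and members that did not. Oasl1, which in mouse restrains translation of Irf7 mRNA, had 7.73, 8.12 and 8.85 in brain lines, 7.98, 7.78 and 8.76 in lung lines, and 8.98, 8.53 and 7.82 in primary lines. Oasl2 had 6.58, 6.73 and 7.70 in brain lines, 6.90, 6.86 and 7.72 in lung lines, and 7.58, 7.23 and 6.99 in primary lines. Both were highest in brain line 3, lung line 3 and primary line 1 of their origins. Brain line 3 was 1.89-fold above the other brain lines for Oasl1 and 2.06-fold for Oasl2. The other measured members of the family, Oas1a, Oas2 and Oas3, differed among themselves. Oas3 was lowest in line 3 of brain and of lung, with 5.004, 5.002 and 4.689 in brain lines, 5.033, 5.002 and 4.718 in lung lines, and 5.135, 5.011 and 5.002 in primary lines. Oas1a had 5.21, 5.71 and 5.62 in brain lines, 5.62, 5.62 and 5.42 in lung lines, and 5.27, 5.10 and 5.10 in primary lines. Oas2 had 4.82, 4.43 and 4.92 in brain lines, 4.997, 4.79 and 4.59 in lung lines, and 4.75, 4.85 and 4.60 in primary lines, so that line 3 was the highest brain line but the lowest lung line. All lung lines lay above all primary lines for Oas1a, and brain line 1 alone overlapped the primary lines. Oas1a belongs to a family of near-identical copies, so that its probe set may also read signal of another copy.

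Ifit1 binds viral RNA whose cap lacks methylation. Its levels were 5.23, 5.62 and 5.92 in brain lines, 5.67, 5.47 and 6.63 in lung lines, and 6.94, 6.19 and 5.83 in primary lines. Primary line 1 and lung line 3 were the high lines, at 1.90-fold and 2.09-fold above the others of their origins, and brain line 3 was 1.41-fold above its own. Ifit2, of the same family, had values between 6.09 and 6.64 with no such line, and Ifit3 was below background with 2.99 to 3.46.

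**Figure D3:**
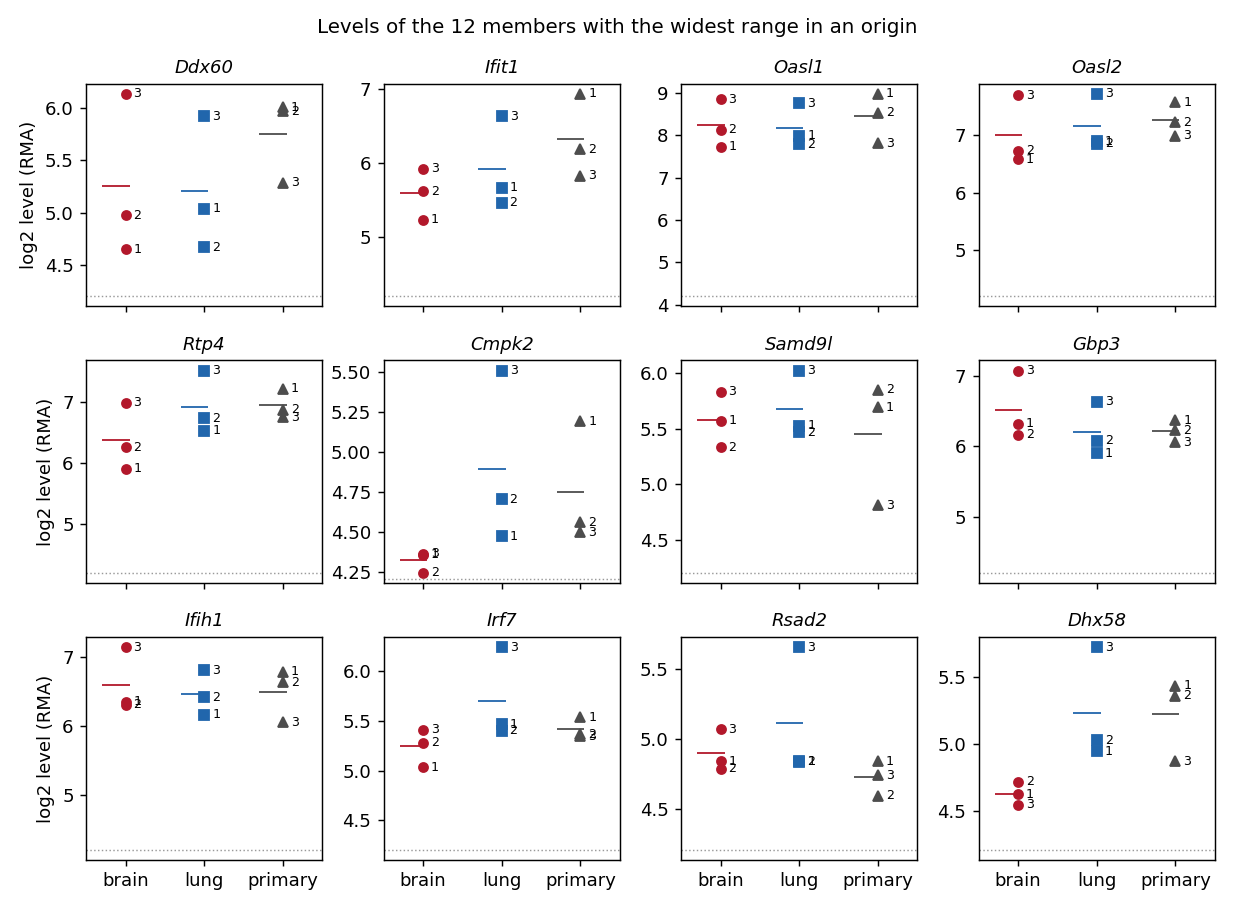
Log2 levels (RMA, vertical axes) of the 12 members with the widest range among lines of an origin, by origin (horizontal axes), with each point a line marked by its mouse number, short bars the origin means and dotted lines the background level of 4.21. For Ddx60, Oasl1 and Oasl2 line 3 is the high point in brain and lung, and line 1 in primary.

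Among effectors, Rsad2 and Cmpk2, neighbouring genes that act on nucleotides (viperin and a mitochondrial nucleotide kinase), were at their highest in lung line 3. Rsad2 had 4.84, 4.79 and 5.07 in brain lines, 4.84, 4.84 and 5.66 in lung lines, and 4.84, 4.59 and 4.74 in primary lines. Cmpk2 had 4.36, 4.25 and 4.37 in brain lines, 4.47, 4.71 and 5.51 in lung lines, and 5.19, 4.56 and 4.50 in primary lines. Lung line 3 was 1.76-fold above the other lung lines for Rsad2 and 1.89-fold for Cmpk2, and all brain lines were below all other lines for Cmpk2, at levels close to background. Samd9l, a restriction factor for poxviruses, had 5.58, 5.33 and 5.83 in brain lines, 5.53, 5.47 and 6.02 in lung lines, and 5.69, 5.85 and 4.81 in primary lines. Its widest gap was a low primary line 3.

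Bst2, or tetherin, holds budding virus at the cell surface. It had 7.61, 7.83 and 8.23 in brain lines, 7.32, 7.43 and 7.71 in lung lines, and 7.51, 7.44 and 7.21 in primary lines. All brain lines were above all primary lines, whereas brain line 1 lay below lung line 3. Trim30a, which in mouse dampens Toll-like receptor signalling, had 6.04, 5.68 and 5.47 in brain lines, 5.87, 6.14 and 6.55 in lung lines, and 5.54, 5.81 and 5.71 in primary lines. For Trim30a all lung lines exceeded all primary lines, and brain line 3 was the lowest of the brain lines. Isg20, an exonuclease, was also lowest in brain line 3 among brain lines, with 9.25, 9.32 and 8.86 in brain lines, 9.12, 9.33 and 9.23 in lung lines, and 8.87, 9.11 and 9.14 in primary lines.

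Of the transcription factors, Irf7, the factor that drives the later interferon alpha genes, had 5.03, 5.28 and 5.41 in brain lines, 5.46, 5.40 and 6.24 in lung lines, and 5.54, 5.36 and 5.34 in primary lines. Lung line 3 was 1.74-fold above the other lung lines, and no other line exceeded 5.54. The ISGF3 subunit Irf9 had 6.27, 6.55 and 7.01 in brain lines, 6.70, 6.56 and 7.08 in lung lines, and 6.43, 6.56 and 6.45 in primary lines. It was high in line 3 of brain and of lung and even among primary lines. Stat2, also a subunit of ISGF3, had 6.88, 6.92 and 7.18 in brain lines, 6.95, 6.81 and 7.20 in lung lines, and 7.36, 7.11 and 7.03 in primary lines. Its range of 0.55 over the 9 lines was narrower than that of Irf7 or Irf9. The high lines of their origins were brain line 3, lung line 3 and primary line 1.

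Gbp3, a guanylate-binding GTPase, had 6.32, 6.17 and 7.08 in brain lines, 5.91, 6.08 and 6.63 in lung lines, and 6.37, 6.23 and 6.06 in primary lines. Brain line 3 was 1.78-fold and lung line 3 1.56-fold above the others of their origins, and the primary lines lay close together. Rtp4, a chaperone of membrane receptors that interferon induces, had 5.91, 6.26 and 6.99 in brain lines, 6.53, 6.73 and 7.52 in lung lines, and 7.22, 6.88 and 6.76 in primary lines. Its range over the 9 lines, 1.61, was exceeded only by that of Ifit1, 1.70. Of the ISG15 system, Usp18, the protease that removes ISG15, had 4.95, 5.43 and 5.65 in brain lines, 4.82, 4.71 and 5.25 in lung lines, and 5.02, 4.91 and 5.01 in primary lines. The ligase gene Herc6 spanned 6.48 to 7.30, with its highest value in brain line 3.

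Averaged over the 36 members, each centred on its own mean, the lines ran from lung line 3 (0.32) through primary line 1 (0.14), brain line 3 (0.13), primary line 2 (0.01), lung line 2 (-0.05), brain line 2 (-0.12), primary line 3 (-0.12) and lung line 1 (-0.13) to brain line 1 (-0.17). The origins therefore interleaved. Their means were -0.05 ± 0.16 for brain, 0.05 ± 0.24 for lung and 0.01 ± 0.13 for primary lines (SD, n = 3 lines each), closer together than the lines within any of them. All 9 role groups had their highest or second-highest mean in lung line 3, except the oligoadenylate synthetase family, where brain line 3 (0.25) and primary line 1 (0.24) were above it (0.13).

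The comparison of origins asked whether metastatic site went with a different level of the program. No member passed an adjusted p of 0.05 in brain against primary lines, where 3.13% of all genes passed, in lung against primary lines (0% of all genes), or in brain against lung lines (1.98% of all genes). The same held for the F test over the 3 origins (2.36% of all genes). The test was limma's moderated test on 3 lines per origin with Benjamini-Hochberg adjustment over 19938 genes. At an unadjusted p under 0.05 there were 3 members (8.33%, against 15.8% of all genes) in brain against primary lines, 2 (5.56%, against 4.74%) in lung against primary lines and 8 (22.2%, against 14.9%) in brain against lung lines. These comparisons share lines, since each origin enters 2 of them.

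The median log2 difference over the members was -0.02 for brain minus primary lines, against 0.00 over all genes. It was 0.02 for lung minus primary lines, against 0.01 over all genes, and -0.08 for brain minus lung lines, against -0.01. Among single members, Bst2 came closest in brain against primary lines, with a difference of 0.50 ± 0.16 (SE, adjusted p = 0.139). Dhx58 came closest in brain against lung lines, with -0.61 ± 0.21 (SE, adjusted p = 0.191), and had -0.60 ± 0.21 in brain against primary lines (SE, adjusted p = 0.177). Oas1a had the smallest F test p (adjusted p = 0.232), with 0.35 ± 0.13 for brain minus primary and 0.39 ± 0.13 for lung minus primary lines. Trim30a had 0.50 ± 0.18 for lung minus primary lines (SE, adjusted p = 0.975).

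The members with wide differences between lines had correspondingly wide errors between origins. Ifit1 differed by -0.73 ± 0.34 between brain and primary lines (SE, adjusted p = 0.347), Ddx60 by -0.50 ± 0.41 (adjusted p = 0.656) and Rtp4 by -0.56 ± 0.30 (adjusted p = 0.427). Oasl1 differed by -0.21 ± 0.36 and Oasl2 by -0.26 ± 0.31 in the same comparison. Counted by overlap, all brain lines exceeded all primary lines in 1 member, Bst2 (9.36% of all genes), and were all below them in Dhx58, Cmpk2, Parp9 and Ifi35 (8.47% of all genes). All lung lines exceeded all primary lines in Oas1a and Trim30a (4.88% of all genes), and were all below them in none (3.84% of all genes). All brain lines exceeded all lung lines in none (8.27% of all genes), and were all below them in Dhx58, Zbp1 and Cmpk2 (8.63% of all genes). As shares of the 36 members these 6 counts were, in the order given, 2.78%, 11.1%, 5.56%, 0%, 0% and 8.33%. With brain line 1 left out, Oas1a passed in brain against primary lines (adjusted p = 0.0352), the only member to do so.

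**Figure D4:**
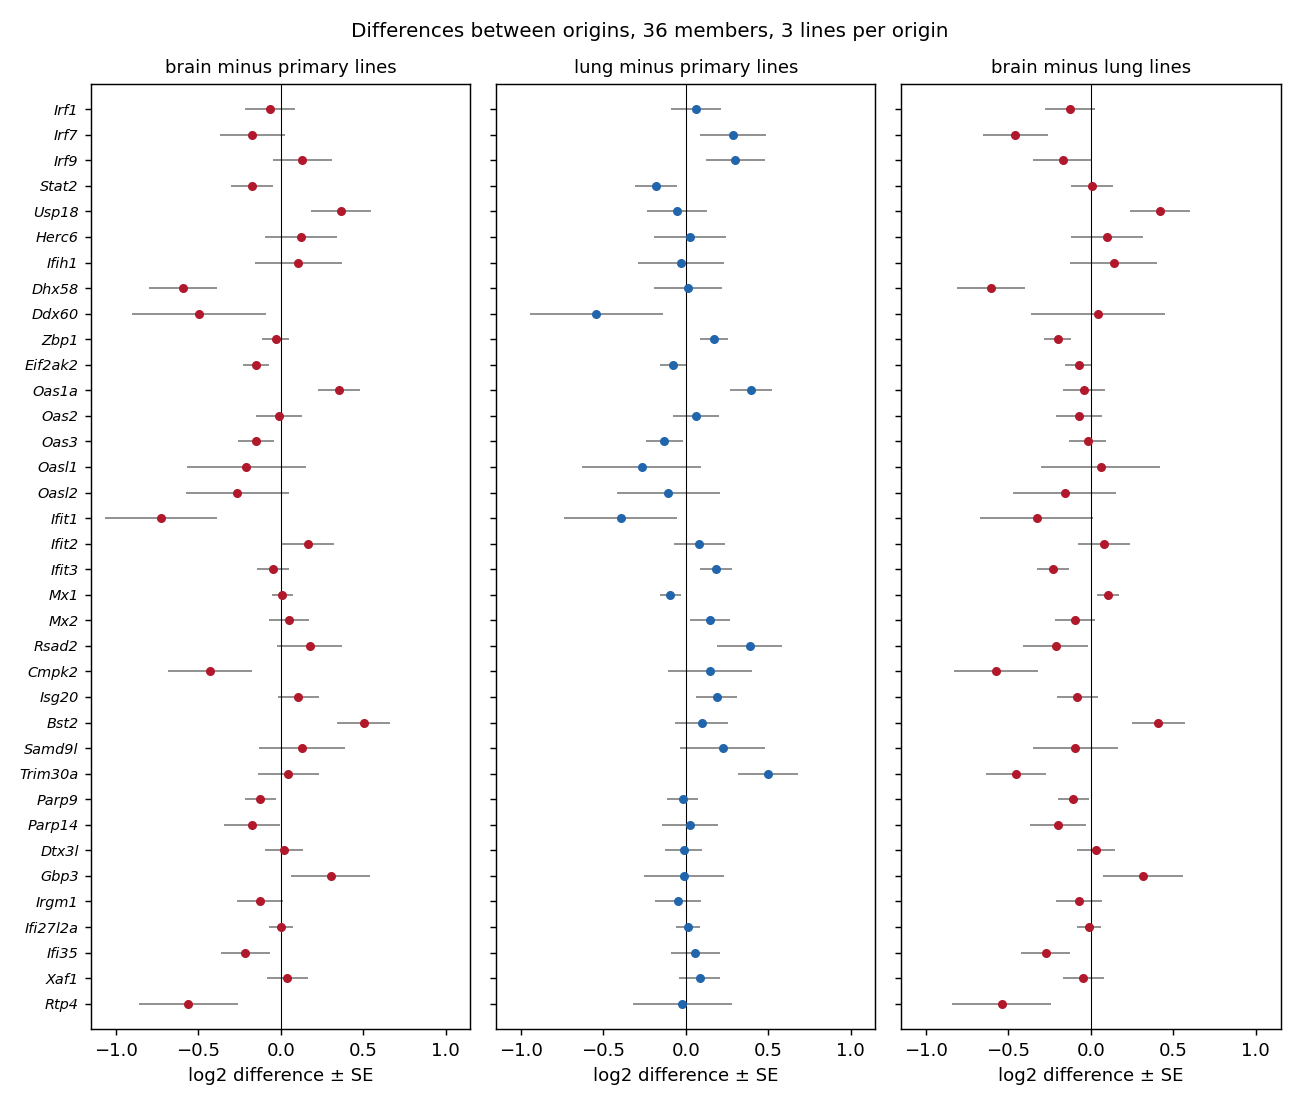
Log2 differences between origins (horizontal axes, points, with bars of 1 standard error, 3 lines per origin) for the 36 members (vertical axis), in panels for brain minus primary, lung minus primary and brain minus lung lines. No member passed an adjusted p of 0.05 in any panel, and the widest bars belong to Ddx60, with a standard error of 0.41.

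Lines of the same origin differed more in these genes than in most. The residual standard deviation within origins had a median of 0.231 over the members and 0.12 over all genes, and 31 of 36 members (86.1%) were above the median of genes at a like level. Of the 36, 16 (44.4%) lay among the 10% of genes with the widest spread at a like level. The median range among the 3 lines of an origin was 0.40 in brain, 0.53 in lung and 0.27 in primary lines over the members, against 0.20, 0.19 and 0.17 over all genes. The widest range lay in lung lines for 20 members, in brain lines for 12 and in primary lines for 4. The same counts were not made over all genes. At the other end, 11 members spanned less than 0.5 over all 9 lines, among them Eif2ak2, Zbp1, Parp9, Dtx3l, Oas3, Isg20 and Xaf1.

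**Figure D5:**
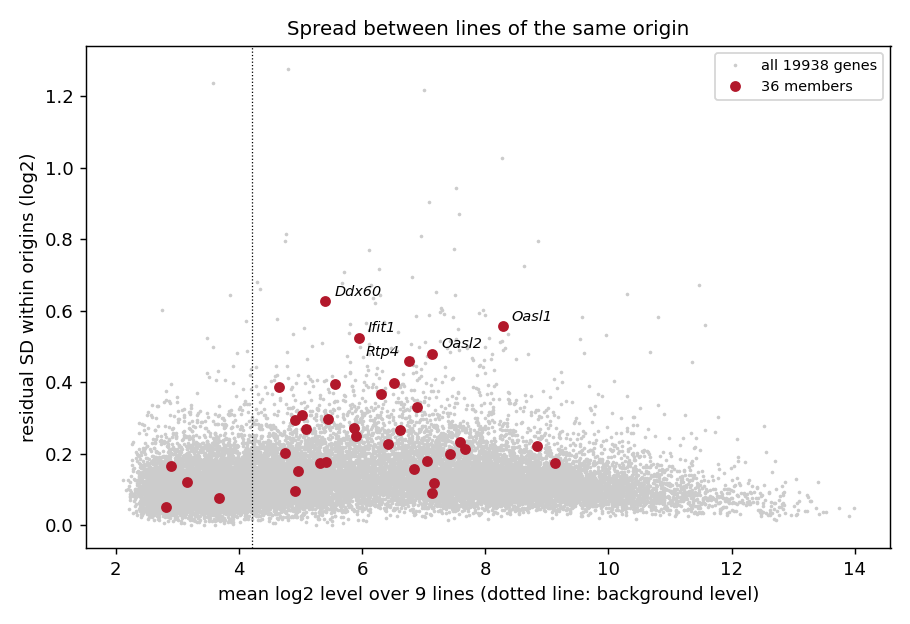
Residual standard deviation between lines of the same origin (log2, vertical axis) against the mean log2 level over 9 lines (horizontal axis) for all genes in grey and the 36 members in red, with the background level as a dotted line. The labelled members Ddx60, Oasl1, Ifit1, Oasl2 and Rtp4 lie above most grey points at their level, and the median is 0.231 over the members and 0.12 over all genes.

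The members did not all vary together. Over the 9 arrays, the correlation of a member with the mean of the other members was at least 0.7 in 17 members, led by Parp14, a mono-ADP-ribosyl transferase (0.934), Oasl2 (0.92), Rtp4 (0.878) and Xaf1, a pro-apoptotic factor (0.846). With origins centred first, 23 members reached 0.7, and Bst2 moved to 0.902, compared with 0.369 before centring. The correlation was under 0 in 6 members, with Oas3 (-0.621), Ifi27l2a (-0.557), Mx1 (-0.446) and Isg20 (-0.427) the lowest, of which Ifi27l2a and Mx1 are below background. These points share the array and its normalization, and with 9 arrays a correlation is a description only. The members with the ISRE letters had a median correlation of 0.414 and those without had 0.778, among them Oasl1, Oasl2 and Irf7.

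Upstream of the members, none of the 10 interferon genes and none of the 6 receptor genes measured was called in any comparison. Ifnb1, the gene of interferon beta, was below background in every line, between 3.26 and 3.69. Of the interferon genes, 5 were above background. Ifnz and Ifnab had the smallest F test p of the ligands. Ifnz, a limitin gene, had 6.88, 6.92 and 6.73 in brain lines, 7.63, 7.04 and 7.20 in lung lines, and 7.22, 7.47 and 7.09 in primary lines. All brain lines lay below all others, with a difference of -0.42 ± 0.15 from primary lines (SE, adjusted p = 0.194). Ifnab stayed close to background at 3.84 to 4.42, and passed in brain against primary lines without lung line 1 (adjusted p = 0.0431). Ifnar1, the receptor chain named above, had 8.20, 8.29 and 8.33 in brain lines, 8.44, 8.67 and 8.66 in lung lines, and 8.51, 8.59 and 8.61 in primary lines. All brain lines lay below all others, and the difference was -0.30 ± 0.08 from primary lines (SE, adjusted p = 0.0826) and -0.32 ± 0.08 from lung lines (adjusted p = 0.0857). Ifnlr1, the chain specific to type III interferon, differed by 0.50 ± 0.13 between brain and primary lines (SE, adjusted p = 0.0698). With the mouse number as a replicate block, Ifnar1 had an adjusted p of 0.0494 in brain against lung lines and 0.0483 in brain against primary lines, and Ifnlr1 had 0.0433 in brain against primary lines. Ifnar1 also passed in brain against primary lines without lung line 1 (adjusted p = 0.0459). After a further quantile normalization Ifnar1 had 0.0218 in brain against primary and 0.0215 in brain against lung lines, and Ifnlr1 had 0.0336 in brain against primary lines. With array weights the same 3 values were 0.0488, 0.0305 and 0.0422. Ifnlr1 further passed with centred arrays (0.0332) and without dim genes (0.0472).

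None of the 13 signal transducers and inhibitors and none of the 13 sensors upstream of interferon was called. The phosphatase gene Ptpn6, an inhibitor of the Jak kinases, came closest, with -0.36 ± 0.08 in brain minus lung lines (SE, adjusted p = 0.0519), and passed without brain line 1 (adjusted p = 0.0484), without dim genes (0.0403) and with array weights (0.034). Tyk2 had 6.14, 6.37 and 5.60 in brain lines, 6.53, 6.62 and 6.59 in lung lines, and 6.53, 6.62 and 6.43 in primary lines, with brain line 3 the lowest of all. Sting1, the adaptor for cytosolic DNA sensing, differed by 0.28 ± 0.08 between brain and primary lines (SE, adjusted p = 0.0901), and the adaptor Myd88 by 0.05 ± 0.07 (adjusted p = 0.854).

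Among 55 further interferon-induced genes, 3 fell in brain against primary lines (5.45%, where 3.13% of all genes passed in either direction) and none rose. Of these, 1 also fell in brain against lung lines (1.82%, where 1.98% of all genes passed). Slfn2, a Schlafen gene that keeps T cells quiescent in mouse, had 5.71, 5.81 and 5.57 in brain lines, 6.66, 7.57 and 7.41 in lung lines, and 7.35, 6.97 and 6.43 in primary lines. All brain lines lay below all others, and the log2 difference was -1.22 ± 0.26 from primary lines (SE, adjusted p = 0.0361) and -1.52 ± 0.26 from lung lines (adjusted p = 0.0215). Ifi203, of the family that includes sensors of DNA, had 8.43, 8.30 and 7.93 in brain lines, 8.84, 8.59 and 8.70 in lung lines, and 8.98, 8.76 and 9.06 in primary lines. Slfn8 had 6.53, 6.39 and 6.58 in brain lines, 6.73, 6.81 and 6.74 in lung lines, and 6.81, 6.87 and 6.94 in primary lines. In brain against primary lines Ifi203 fell by 0.72 ± 0.13 (SE, adjusted p = 0.0224) and Slfn8 by 0.37 ± 0.07 (adjusted p = 0.0245), with brain lines below all others in both. Slfn2 and Slfn8 belong to a family of similar copies.

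These calls depended on single lines and on the model. With only the 6 arrays compared, the adjusted p was 0.0704 for Slfn2, 0.0893 for Ifi203 and 0.0754 for Slfn8 in brain against primary lines, and 0.0507 for Slfn2 in brain against lung lines. Without moderation of the variances these were 0.179, 0.129, 0.0723 and 0.154. Slfn2 no longer passed in brain against primary lines without brain line 1 (adjusted p = 0.0866), brain line 2 (0.0849), brain line 3 (0.107), lung line 3 (0.0632), primary line 1 (0.115) or primary line 2 (0.114). In brain against lung lines it was lost without brain line 1 (0.0599), brain line 2 (0.0586), brain line 3 (0.0742), lung line 2 (0.0955) or lung line 3 (0.083). Ifi203 was lost without brain line 2 (0.0556), primary line 1 (0.0814) or primary line 3 (0.0808). Slfn8 was lost without brain line 1 (0.0511), brain line 2 (0.0711), primary line 1 (0.0522), primary line 2 (0.0782) or primary line 3 (0.0827), and with each array centred on its median (0.0646).

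As a list, the 55 further genes had a median of 0.135 in lung line 3 against the other lung lines (-0.00485 over all genes). In that line 5 were at least 1.5-fold higher (0.416% of all genes) and 0 lower (0.296% of all genes). In brain line 3 the median was 0.04 (0 over all genes), with 2 higher (0.777% of all genes) and 3 lower (1.07% of all genes). The chemokine genes Cxcl10 and Ccl5, picked after their values were seen, were higher in both lines. Cxcl10 had 5.92, 6.63 and 7.12 in brain lines, 5.999, 6.16 and 7.28 in lung lines, and 6.91, 6.63 and 6.63 in primary lines. Ccl5 had 7.69, 7.72 and 8.95 in brain lines, 7.82, 7.60 and 8.81 in lung lines, and 8.13, 7.74 and 7.50 in primary lines. In both, brain line 3 and lung line 3 were the highest of all 9 lines. Of the further genes above background, 7 of 45 (15.6%) correlated at 0.7 or more with the mean of the members, against 171 of 14174 non-member genes (1.21%).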

How the data were processed

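Each of the 9 lines was hybridised to 1 Affymetrix Mouse Gene ST array. The deposited values are log2 intensities, and the submitters' processing notes name RMA without a version. Genome build and raw signals are not analysed here. Array signal has no read depth, so that precision rests on 3 lines per origin. Symbols came from the platform annotation of the 35557 probe sets: 21789 carried 1 symbol, 1621 several and 12147 none. The probe set with the highest mean stood for each of 19938 genes.

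Origins were compared with lmFit and eBayes of limma 3.58.1 in R 4.3.3, with 1 coefficient per origin over all 9 arrays (6 residual and 3.72 prior degrees of freedom), two-sided, with Benjamini-Hochberg adjustment over all genes; the fit was tested on simulated data. Error is SD between lines or SE of the fit, and since each line is 1 culture, the spread covers mouse, line and array together. Single lines were described by difference and by a limit of 1.5-fold. Tables and figures used Python 3.11.15, pandas 2.3.3 and matplotlib 3.10.9.

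Mouse numbers were checked as pairs by the correlation of deviations from the origin means over all genes. Same-numbered brain and lung lines gave 0.284, 0.130 and 0.241, all above the limit of 0.1 set for pairing. Brain with primary lines gave 0.0666, -0.000736 and -0.0442, and lung with primary lines 0.221, 0.0785 and 0.00798, not all above it. The titles use mouse numbers 1 to 3 in every origin, while the study's design text counts 9 separate mice. The main fit was unpaired in every comparison, and the mouse number entered only in the alternative with a replicate block.

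Values in all lines are printed for the 12 members with the widest range in an origin, the 4 with the smallest F test p, and Irf7, Irf9 and Stat2. Isg20, Oas3 and Usp18 were added after their values were seen, and Oas2, also printed, falls under none of these rules. Pathway lists give every called gene, otherwise the 2 with the smallest F test p; Ifnb1, Cxcl10 and Ccl5 were added after their values were seen. Members and lists were chosen with earlier results of these data known. Alternatives tried were quantile normalization again, centred arrays, leaving out dim genes, the mean of all probe sets, other variance models, array weights, the replicate block, fewer arrays, other thresholds and each line left out in turn.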

Additional observations from a re-analysis of the deposited data

How the results depend on the processing

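No member passed an adjusted p of 0.05 in any comparison of origins under any alternative fit at that threshold, replicate block included (0 members), except in brain against primary lines without brain line 1, where the count was 1; leaving out lines in turn gave 0 to 1 there. Over 1509 values of the 28 named genes under alternatives, 59 had another sign and 0 of those were called. Summed over lines, leaving out lines gave 11 to 25 cases of a member at least 1.5-fold higher (11 without lung line 3, against 21 in all). It gave 9 to 24 cases lower (9 without brain line 3 and 24 without lung line 2, against 14). A member can count in several lines, and a line left out no longer counts. The lines left in its origin are then compared with each other, so these sums are not the same quantity as the 21 and 14. At 2-fold, with all lines, 4 cases were higher and 0 lower. The member median of lung line 1 ranged from -0.482 (without lung line 2) to -0.103, and that of lung line 2 from -0.376 (without lung line 1) to 0.103 without lung line 3, which turns its sign. With 3 lines per origin, an exact permutation test cannot give a p under 0.1. Of the members, 4 had means below background, where a difference may go unseen, and the arrays give no count of cells or molecules.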

Other observations

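The non-member genes whose pattern over the 9 arrays was most like the mean of the members were chosen by correlation alone, among 14174 genes above background. The first 15 were Pxmp2 (0.945), Dtx1 (0.916), Ccdc15 (0.902), Dsc2 (0.886), Wdr76, Tmem106a, Slc37a3, Tlcd2, Acbd4, Rnu12, Pih1d2, Arhgap12, Gcc1, Cxcl10 (0.849) and Svil (0.848). Of these only Cxcl10 is on a list of further interferon-induced genes. Dsc2, which encodes the desmosomal cadherin desmocollin, spanned 1.44 over the 9 lines and Cxcl10 spanned 1.36, whereas the other 13 spanned 0.18 to 0.60. The correlations are a description over 9 arrays that share their normalization.

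Beyond Cxcl10 and Ccl5, further interferon-induced genes at least 1.5-fold higher in lung line 3 than in the other lung lines were Ifi27, Lgals3bp and Phf11d. That limit was passed by 0.416% of all genes. In brain line 3, Gbp4, Ifitm3 and Ifitm2 were at least 1.5-fold lower than in the other brain lines (1.07% of all genes). Ccl5 and Cxcl10 were higher there (0.777% of all genes). In primary line 1, Slfn2 was at least 1.5-fold higher than in the other primary lines (0.316% of all genes). Ifi205 also passed that limit, but it was below background in every line, between 2.88 and 3.83, and is given no fold.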
